A study of Homo sapiens with 6 samples.

Results

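Cassette exons are internal exons that a transcript can carry or leave out. The exons described here have a length whose loss from a coding region keeps the reading frame. They are called frame-keeping by length alone, also where they lie in a UTR or a noncoding transcript. They were taken from the deposited isoform models of HBEC3kt cells as internal exons of 61 to 250 bases, with a length divisible by 3, for which another isoform of the same gene joins the same 2 flanking splice sites directly. Where several pairs of flanking sites fitted, the pair with most reads was used. Inclusion is the percentage of reads with the exon among all reads that either hold it between those sites or skip it, called informative reads below. With at least 10 informative reads in each of 6 libraries, 2627 exons in 1534 genes remained of 7541 cassette exons of any length. Before that minimum there were 4020 such exons, so 1393 were left out. The minimum cuts through a dense range: 82 exons had exactly 10 informative reads in their lowest library and 81 left-out exons had 9.

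HBEC3kt is an immortalised line of human bronchial epithelial cells. The comparison was between cells with the S34F mutation of the splicing factor gene U2AF1 and wild-type cells of the same line, to examine how RNA processing differs, and no other treatment or allele is given for either genotype. Each genotype had 3 libraries of poly(A) RNA, copied into full-length cDNA and read by nanopore sequencing. They came from 2 cell isolates, isolate 1 as replicate 1 and isolate 2 as replicates 2 and 3, and whether an isolate is a single clone is not stated. Replicates 1 and 2 carry the mark B1 and replicate 3 the mark B2, and no source used here says what the marks mean. Replicates 2 and 3 share an isolate, so the p-values below rest on spread between these libraries, part of which may be technical. For exons, the edgeR p-values and SEs use a spread shared across exons, not the spread of each exon's own values.

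The S34F libraries held 451540 to 1014868 assigned reads and the wild-type libraries 1286512 to 1720292. All 12 basal airway epithelial markers examined were read, with summed levels of 10454 to 17952 CPM (reads scaled to library size, with TMM factors) in S34F and 8340 to 13883 CPM in wild-type libraries. S100A2, 1 of the 12, made up much of these sums. It stood at 12326, 7663 and 5853 CPM in S34F replicates 1, 2 and 3, against 7037, 5107 and 2877 CPM in the wild-type replicates. Of the ciliated cell markers, 1 of 5 was read (DNAH5, 1.43 to 2.63 CPM in S34F and 0 to 0.587 CPM in wild-type libraries), and the markers of secretory cells, fibroblasts, blood and endothelium were at 0. U2AF1 itself stood at 468, 374 and 224 CPM in S34F replicates 1, 2 and 3, against 524, 588 and 299 CPM in the wild-type replicates. Its ranges overlapped, and the counts carry no base calls with which to check the genotype.

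U2AF marks the 3′ end of an intron: its large subunit binds the pyrimidine tract and its small subunit, encoded by U2AF1, contacts the AG that ends the intron. The S34F change lies in a zinc finger of that small subunit and is known from myeloid neoplasms and lung adenocarcinoma, where it alters which 3′ splice sites are used, partly according to the base before the AG. An exon whose length is a multiple of 3 can be left out of a coding region without shifting the codons behind it, so both forms can give a protein that differs by an internal stretch.

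The sequences of the 9 coding exons whose inclusion was called different between the genotypes are shown first. How often each was called under other settings differed widely and is given in the closing section. They are given 5′ to 3′ on the strand of the gene and were taken from GENCODE 29 transcripts in which an exon of the same gene has the same length and the same 2 flanking intron lengths. Positions are those of the deposited isoforms in build hg19. For 3 of them a transcript that runs through the intron also gave its last 20 bases, and there the capitals mark the end of the intron, the AG and the base before it.
MRPS18C: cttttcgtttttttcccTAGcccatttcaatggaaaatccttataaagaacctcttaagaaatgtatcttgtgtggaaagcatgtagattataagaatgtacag
PABPC4: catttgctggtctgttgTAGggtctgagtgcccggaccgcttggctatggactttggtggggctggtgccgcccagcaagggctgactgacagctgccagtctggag
DCTN3: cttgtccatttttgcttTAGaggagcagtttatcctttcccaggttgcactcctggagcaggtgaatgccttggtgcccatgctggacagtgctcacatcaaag
For the other 6 the end of the intron was not read, and the capital marks the first base of the exon.
PDHA1: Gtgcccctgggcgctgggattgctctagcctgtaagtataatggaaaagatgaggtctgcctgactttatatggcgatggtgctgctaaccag
IDH3B: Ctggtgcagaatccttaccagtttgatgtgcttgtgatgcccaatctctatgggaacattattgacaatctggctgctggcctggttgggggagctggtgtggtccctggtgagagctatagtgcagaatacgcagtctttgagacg
EXOSC1: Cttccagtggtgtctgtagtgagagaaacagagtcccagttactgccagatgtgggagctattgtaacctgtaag
GSTO1: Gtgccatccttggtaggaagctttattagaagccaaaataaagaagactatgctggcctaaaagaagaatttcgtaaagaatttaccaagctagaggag
C1orf43: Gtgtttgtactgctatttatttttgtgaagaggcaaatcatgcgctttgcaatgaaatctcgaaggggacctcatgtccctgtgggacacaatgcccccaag
ST7: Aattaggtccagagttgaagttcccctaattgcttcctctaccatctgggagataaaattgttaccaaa
In MRPS18C, PABPC4 and DCTN3 the AG followed a T. These exons lie at chr4:84379499-84379582 (plus strand), chr1:40029508-40029594 (minus strand) and chr9:34616027-34616110 (minus strand). The other 6, in the order shown, lie at chrX:19372609-19372701 (plus), chr20:2640676-2640822 (minus), chr10:99202994-99203068 (minus), chr10:106022737-106022835 (plus), chr1:154192312-154192413 (minus) and chr7:116774178-116774246 (plus).

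Most of the 2627 exons were included almost always. Mean inclusion over the 6 libraries was 95% or more for 1294 exons, 80 to 95% for 630, 20 to 80% for 263, 5 to 20% for 204 and below 5% for 236. Lengths ran from 63 bases (56 exons) to 249 bases (5 exons) with a median of 111, and the next cassette exons outside the limits with a length divisible by 3 were 66 of 60 bases and 2 of 252 bases. An exon had 85 to 56718 informative reads over all libraries, with a median of 728. In 897 genes there was a single such exon, and in 637 genes there were 2 or more. SLC3A2, which encodes the heavy chain of amino acid transporters at the cell surface, had most, with 12 exons whose mean inclusion ran between 0.641% and 99.7%. In SLC3A2, 9 exons had a lower and 3 a higher mean in S34F libraries, 8 shared both flanking sites with another, and the smallest unadjusted p was 0.0647 (edgeR). Exons of 1 gene are not independent of each other: 239 of the 2627 shared both flanking sites with another and 206 overlapped another.

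The annotation divided these exons by level. The included form was in an annotated isoform for 2083 exons (79.3%) and the skipping form for 837 (31.9%). Where only the included form was annotated (1582 exons), median inclusion was 97.2%. Where only the skipping form was annotated (336 exons), it was 4.45%, and where both were (501 exons), 85.9%. GENCODE matched 2278 exons (86.7%), of which 1953 (85.7%) were fully coding in at least 1 transcript, 157 partly coding, 110 in a UTR and 58 in noncoding transcripts. For 822 exons (31.3%) the end of the intron before the exon could be read, and all 822 ended in AG.

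Across these exons inclusion did not move one way between the genotypes. The median inclusion was 94.8%, 95.5% and 95% in S34F replicates 1, 2 and 3, against 95%, 94.3% and 94.9% in the wild-type replicates. The 2 sets of values overlapped. Mean inclusion was lower in S34F cells for 1277 exons and higher for 1350, with a median difference of 0.0405 percentage points and a mean difference of -0.362 points (0.0246 and -0.336 points over all 7541 cassette exons). It was more than 10 points lower in S34F cells for 75 exons (2.85%) and more than 10 points higher for 27 (1.03%), beside 3.09% and 1.37% of all cassette exons. The 3 S34F values lay below all 3 wild-type values for 205 exons (7.80%) and above them for 169 (6.43%), beside 8.23% and 6.98% of all cassette exons. These shares were near those of all cassette exons.

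**Figure D1:**
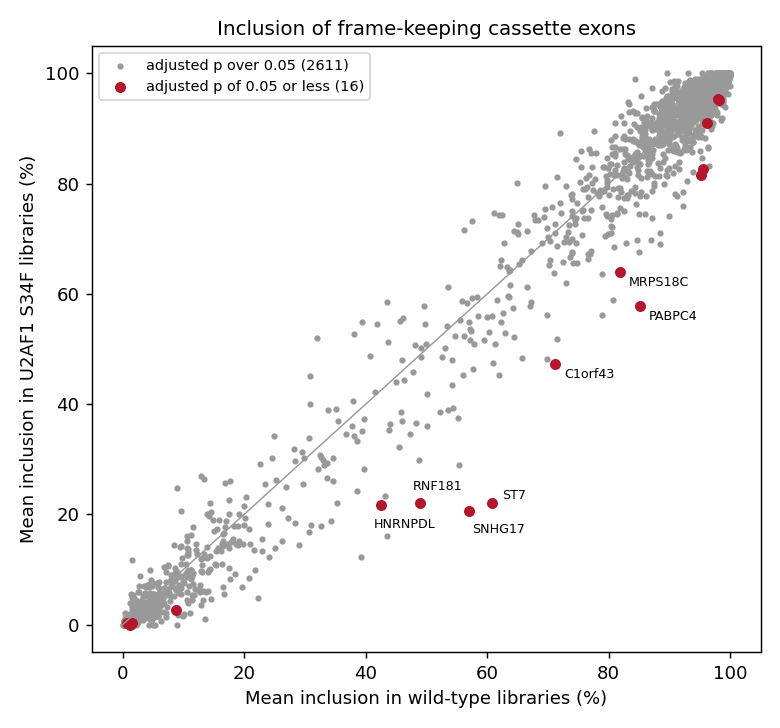
Mean inclusion of each of the 2627 exons over the 3 U2AF1 S34F libraries (vertical axis, %) against the 3 wild-type libraries (horizontal axis, %), with the line of equal inclusion. The 16 exons with an adjusted p of 0.05 or less are large and red, and all lie below the line, with 7 of them named, from HNRNPDL at 42.6% to PABPC4 at 85.1% mean wild-type inclusion.

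The direction of the small differences went with the level of inclusion. Below 5% inclusion, 73.7% of the 236 exons had a lower mean in S34F cells, and at 5 to 20% it was 66.7% of 204. At 20 to 80% it was 62.4% of 263, with a median difference of -2.49 points, at 80 to 95% 48.4% of 630, and at 95% or more 38.5% of 1294. Over all cassette exons of any length the shares were 73.4%, 66.8%, 57.1%, 46.9% and 38.8% in the same order. The rarer of the 2 forms thus had the lower mean in S34F cells for most exons at both ends. Among exons under 20% inclusion this was so for 310 of 440 (70.5%, beside 70.3% of all cassette exons), and among exons of 80% or more for 1121 of 1924 (58.3%, beside 58.5%). Wild-type libraries held 65.9% of the informative reads behind these exons, and the isoforms were defined once from the whole series. The part of this imbalance in the pattern was not tested.

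**Figure D2:**
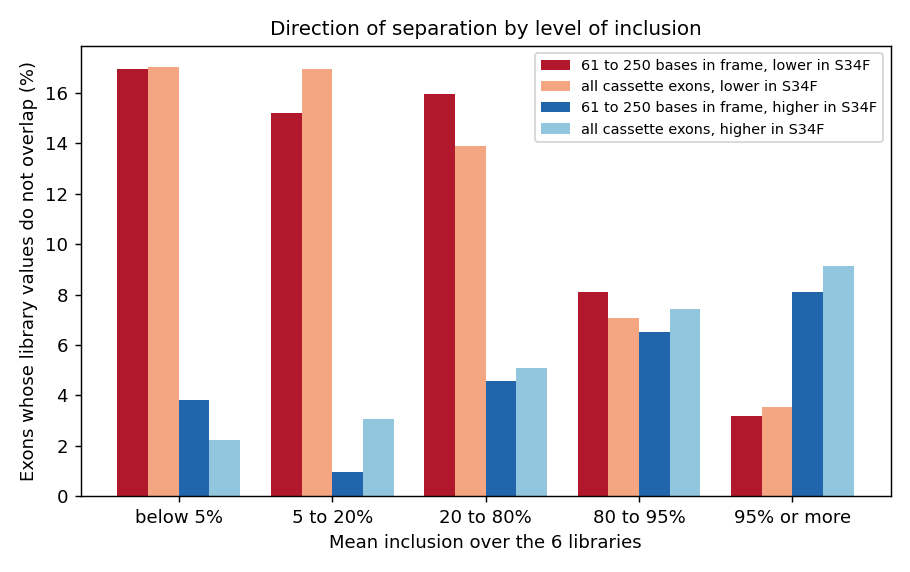
Percentage of exons whose 3 S34F values all lay below (red) or above (blue) the 3 wild-type values, in 5 classes of mean inclusion, for the frame-keeping exons of 61 to 250 bases (dark bars) and all cassette exons (light bars). Lower values prevail up to 80% inclusion and higher values at 95% or more, in both sets alike.

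Reads with and without each exon were tested between the genotypes in 1 model over all 7541 cassette exons. An exon was called at an adjusted p of 0.05 or less (edgeR's quasi-likelihood test, Benjamini-Hochberg correction over all exons). Of the 2627 frame-keeping exons 16 were called (0.609%), beside 0.888% of all cassette exons. All 16 were lower in S34F cells (beside 0.756% of all cassette exons called lower), and none was higher (beside 0.133%). With TMM scaling of the counts, which moved the log2 odds ratios of all cassette exons up by a median of 0.43, the split was 2 lower and 4 higher. Over all cassette exons 57 lower and 10 higher became 11 lower and 35 higher. The 2 lower were SAT1 and PDHA1 and the 4 higher were MRPL24, RPS18, SMUG1 and RPL4, while the estimates of all 16 remained below 0. Among the frame-shifting exons of 61 to 250 bases, 28 of 3517 were called lower and 7 higher. The difference between these classes of exon was not tested. At an unadjusted p under 0.05 there were 143 frame-keeping exons lower (5.44%) and 83 higher (3.16%), beside 5.74% and 3.58% of all cassette exons, or 9.32% in either direction. Neither limma on the log odds nor DESeq2 called any of the 2627 exons. At an unadjusted p under 0.05, limma had 152 lower and 76 higher and DESeq2 47 lower and 20 higher. Each of the 16 had an unadjusted p under 0.05 with both tools, but on the same counts from which they were picked. Their adjusted p was 0.387 to 0.505 with limma and 0.0748 to 0.9999 with DESeq2.

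In all 16 exons the S34F and wild-type values did not overlap, so the difference was also below 0 within B1 and within B2. The exons were called on these same values, so their separation is no further support. Differences in mean inclusion ran from -0.497 to -38.6 points with a median of -13.3. Within B1 they ran from -0.483 to -43.8 points and within B2 from -0.524 to -39.9 points. Mean wild-type inclusion was over 80% for 7 of them, 20 to 80% for 5 and under 20% for 4. Both forms were annotated for 10 of the 16, only the included form for 3 and only the skipping form for 3.

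**Figure D3:**
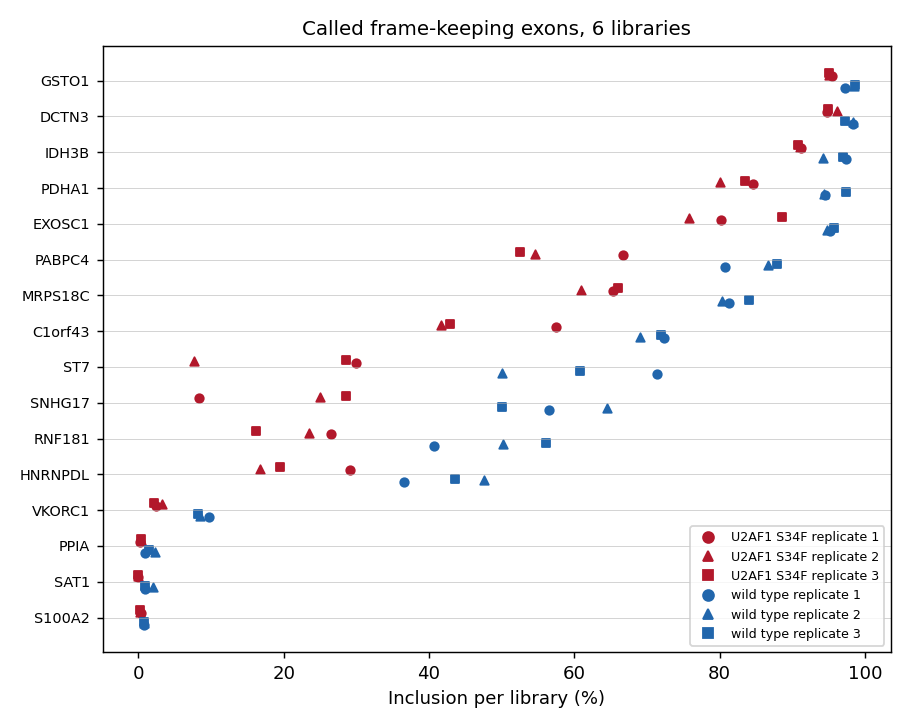
Inclusion (%) of the 16 called exons in every library, with S34F libraries in red above wild-type libraries in blue and symbols by replicate. In each row the 3 red points lie left of the 3 blue ones, with the largest differences in mean in ST7 and SNHG17, and with PPIA, SAT1 and S100A2 near 0 in both genotypes.

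The called exons are taken by the role of their genes. The share of these roles among the hosts of all 2627 exons was not counted. Of the called exons 3 lie in genes of mitochondrial proteins. MRPS18C encodes a protein of the small subunit of the mitochondrial ribosome. Its coding exon of 84 bases was included in 65.3%, 60.9% and 66.0% of 285, 128 and 285 informative reads in S34F replicates 1, 2 and 3, against 81.3%, 80.3% and 84.1% of 540, 717 and 333 in the wild-type replicates. Every S34F library was more than 10 points below every wild-type library. Inclusion fell by 17.8 points, a log2 odds ratio of -1.33 (SE 0.25, edgeR adjusted p = 5.6e-05), while the level of the gene had a log2 fold change of -0.09 (edgeR adjusted p = 0.938). PDHA1 encodes the alpha subunit of the E1 component of pyruvate dehydrogenase, which feeds pyruvate into the citric acid cycle. Its 93-base exon was included in 84.6%, 80% and 83.4% of reads in S34F replicates, against 94.6%, 94.4% and 97.4% in wild-type replicates, with 78 to 151 and 161 to 272 informative reads. The S34F values lay close together and well below the wild-type ones (log2 odds ratio -2.22, SE 0.42, edgeR adjusted p = 8.37e-05). IDH3B encodes a subunit of the NAD-dependent isocitrate dehydrogenase of the same cycle. Its 147-base exon was included in 91.2%, 91.1% and 90.7% of reads in S34F replicates, against 97.4%, 94.2% and 97.0% in wild-type replicates. Inclusion fell by 5.18 points, with wild-type replicate 2 nearest to the S34F values (log2 odds ratio -1.41, SE 0.35, edgeR adjusted p = 0.0104).

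A further 4 lie in genes of RNA-binding proteins or RNA metabolism. EXOSC1 encodes a cap subunit of the RNA exosome, which degrades RNA from its 3′ end. The 75-base coding exon was included in 80.2%, 75.9% and 88.6% of 91, 29 and 70 reads in S34F replicates, against 95.2%, 94.8% and 95.8% of 208, 231 and 191 in wild-type replicates. The wild-type values lay close together while the S34F values spread over more than 10 points (log2 odds ratio -2.10, SE 0.48, edgeR adjusted p = 0.00324). PABPC4 encodes a cytoplasmic poly(A)-binding protein. Its 87-base exon was included in 66.7%, 54.5% and 52.5% of reads in S34F replicates, against 80.8%, 86.7% and 87.9% in wild-type replicates. It had few reads, 11 to 40 and 15 to 58 per library (log2 odds ratio -2.19, SE 0.60, edgeR adjusted p = 0.035).

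HNRNPDL encodes an RNA-binding protein of the hnRNP family, and the called exon of 105 bases (chr4:83346716-83346820, minus strand) lies in a UTR in the matched transcript. Inclusion was 29.2%, 16.7% and 19.5% in S34F replicates, against 36.6%, 47.6% and 43.5% in wild-type replicates, with 24 to 77 and 82 to 112 informative reads. All S34F values were lower, by the least margin between the 2 replicates 1 (log2 odds ratio -1.53, SE 0.42, edgeR adjusted p = 0.0313). A variant of that exon with the same start on the gene's strand but 102 bases long was also among the 2627, with 0%, 4.26% and 1.59% in S34F replicates, against 8.97%, 17.3% and 4.0% in wild-type replicates. It was not called (edgeR adjusted p = 0.491), and it shares its skipping reads with the longer form. SNHG17 is a noncoding host gene of a small nucleolar RNA. Its 150-base exon (chr20:37050739-37050888, minus strand) was included in 8.33%, 25.0% and 28.6% of only 24, 12 and 14 reads in S34F replicates, against 56.5%, 64.5% and 50% of 108, 62 and 52 in wild-type replicates. This was a wide separation on little depth (log2 odds ratio -2.56, SE 0.59, edgeR adjusted p = 0.00389).

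In 4 exons the included form was rare in both genotypes, and the differences in points were small. SAT1 encodes the acetyltransferase that starts the breakdown of spermidine and spermine. Its 66-base exon (chrX:23802455-23802520, plus strand) was in none of 532, 650 and 1134 informative reads in S34F replicates, against 0.833%, 2.01% and 0.928% of 1441, 1241 and 2047 in wild-type replicates. Over the S34F group 0 of 2316 reads allows an inclusion of up to 0.130%, a limit that covers counting error only. Inclusion in pooled wild-type reads was 1.18%, which is 9.14-fold above that limit. This ratio leaves out the error of the wild-type value, which ran from 0.833% to 2.01% between libraries. The exon was called (edgeR adjusted p = 2.11e-06). VKORC1 encodes the vitamin K epoxide reductase that warfarin inhibits. Its 84-base exon (chr16:31104104-31104187, minus strand) was included in 2.38%, 3.3% and 2.19% of reads in S34F replicates, against 9.68%, 8.45% and 8.21% in wild-type replicates. The spread within each genotype was small beside that gap (log2 odds ratio -1.91, SE 0.44, edgeR adjusted p = 0.00342).

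S100A2 encodes a calcium-binding protein of basal epithelial cells and was the most deeply read of the 16, with 2192 to 4671 informative reads in S34F and 3514 to 6736 in wild-type libraries. A 114-base exon (chr1:153535891-153536004, minus strand) was included in 0.300%, 0.182% and 0.216% of them in S34F replicates, against 0.742%, 0.706% and 0.740% in wild-type replicates. The difference was -0.497 points, the smallest of the 16 (log2 odds ratio -1.59, SE 0.37, edgeR adjusted p = 0.00403). PPIA encodes cyclophilin A, and the 120-base exon (chr7:44840023-44840142, plus strand) lies in a UTR in the matched transcript. Inclusion was 0.172%, 0.336% and 0.364% in S34F replicates, against 0.865%, 2.30% and 1.46% in wild-type replicates (log2 odds ratio -2.32, SE 0.64, edgeR adjusted p = 0.0346). PPIA has many near-identical processed copies in the genome, so the assignment of its reads is uncertain.

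The remaining 5 exons were in genes of other roles. ST7, a candidate tumour suppressor gene, had the widest gap of the 16. Its 69-base exon was included in 30.0%, 7.69% and 28.6% of 10, 13 and 35 reads in S34F replicates, against 71.4%, 50% and 60.8% of 35, 12 and 51 in wild-type replicates. All S34F values were at least 20 points below all wild-type values, on few reads (difference -38.6 points, log2 odds ratio -2.43, SE 0.59, edgeR adjusted p = 0.00679). RNF181 encodes a RING-type E3 ubiquitin ligase, and its 75-base exon (chr2:85823980-85824054, plus strand) is partly coding, with a G before the AG. It was included in 26.5%, 23.5% and 16.2% of reads in S34F replicates, against 40.6%, 50.2% and 56.1% in wild-type replicates. Its lowest S34F and highest wild-type value were both in replicate 3 (log2 odds ratio -1.67, SE 0.41, edgeR adjusted p = 0.00892). In C1orf43 the 102-base coding exon was included in 57.5%, 41.7% and 42.9% of reads in S34F replicates, against 72.4%, 69.1% and 72.0% in wild-type replicates. S34F replicate 1 was the nearest to the wild-type values (difference -23.8 points, log2 odds ratio -1.51, SE 0.36, edgeR adjusted p = 0.00582).

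GSTO1 encodes a glutathione transferase of the omega class. Its 99-base exon was included in 95.5%, 95.1% and 95% of 264 to 441 reads in S34F replicates, against 97.2%, 98.5% and 98.6% of 717 to 1116 in wild-type replicates. DCTN3 encodes a small subunit of dynactin, the cofactor of the motor dynein. Its 84-base exon was included in 94.7%, 96.2% and 95% of 159 to 569 reads in S34F replicates, against 98.3%, 98.4% and 97.3% of 487 to 650 in wild-type replicates. In both, skipping stayed rare and the differences were under 3 points (log2 odds ratios -1.36, SE 0.36, and -1.36, SE 0.38, with edgeR adjusted p = 0.0239 for GSTO1 and 0.0367 for DCTN3).

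The number of calls depended on single libraries. SAT1 and MRPS18C were called whichever library was left out, and PABPC4 in none of these 6 fits. Without S34F replicate 1, 8 of the 16 were called, and DCTN3, EXOSC1, GSTO1, IDH3B, PABPC4, PPIA, SNHG17 and VKORC1 were not (edgeR adjusted p of 0.0519 to 0.566). Without S34F replicate 2, 10 were called, and C1orf43, GSTO1, HNRNPDL, PABPC4, PPIA and ST7 were not (0.0691 to 0.345), while RPS18 was called higher. Without wild-type replicate 1, 11 were called, and DCTN3, IDH3B, PABPC4, S100A2 and ST7 were not (0.0599 to 0.262). Without wild-type replicate 2, 7 were called, and DCTN3, EXOSC1, GSTO1, HNRNPDL, PABPC4, PPIA, RNF181, S100A2 and SNHG17 were not (0.0505 to 0.405). Leaving out S34F replicate 3 or wild-type replicate 3 left a single B2 library, which the term for B1/B2 takes up. EXOSC1, MRPS18C, SAT1 and SNHG17 were then called, and the other 12 were not (0.110 to 0.767 without the S34F library and 0.115 to 0.766 without the wild-type one). With all libraries reduced to the same depth, 1 exon was called, that of SAT1 (edgeR adjusted p = 0.0200).

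None of the exons with higher inclusion in S34F cells passed the threshold. The 6 with the smallest p lie in MRPL24, RPS18, RPL4, SMUG1, HARS and HSD17B10. MRPL24 encodes a protein of the mitochondrial ribosome, and RPS18 and RPL4 encode proteins of the cytosolic ribosome. The share of such genes among the hosts of all 2627 exons was not counted. The 96-base exon of MRPL24 was included in 98.7%, 100% and 98.3% of reads in S34F replicates, against 96.9%, 95.8% and 96.6% in wild-type replicates (log2 odds ratio 1.58, SE 0.46, edgeR adjusted p = 0.066). The 117-base exon of RPL4 was included in 99.5%, 99.2% and 96.7% in S34F replicates, against 95.6%, 94.2% and 94.4% in wild-type replicates (log2 odds ratio 1.77, SE 0.58, edgeR adjusted p = 0.133). RPS18 and RPL4, like RPS14 and ACTB below, have processed copies in the genome that could share reads. In HARS, the gene of histidyl-tRNA synthetase, a 243-base exon was included in 99.1%, 100% and 100% in S34F replicates, against 97.9%, 97.4% and 98.0% in wild-type replicates (edgeR adjusted p = 0.14). A 165-base exon of HSD17B10, a mitochondrial dehydrogenase gene, was included in 98.7%, 94.3% and 98.0% in S34F replicates, against 92.4%, 91.6% and 92.2% in wild-type replicates (edgeR adjusted p = 0.185). These exons were near full inclusion in both genotypes, with no overlap between the genotypes in MRPL24, RPL4, HARS and HSD17B10. SMUG1, a uracil-DNA glycosylase gene, was the exception in level and did not overlap either, with an 87-base UTR exon at 57.1%, 36.4% and 62.5% in S34F replicates, against 31.8%, 34.8% and 29.3% in wild-type replicates (edgeR adjusted p = 0.133).

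Among exons without overlap between the genotypes, 2 of the 6 largest differences were not called. In THOC3, which encodes a protein of the THO complex for mRNA export, a 213-base exon was included in 9.52%, 15.4% and 12% in S34F replicates, against 33.3%, 50% and 34.4% in wild-type replicates (difference -26.9 points, edgeR adjusted p = 0.114). In TM2D3, which encodes a membrane protein with a TM2 domain, a 78-base coding exon was included in 5.26%, 18.2% and 25.0% in S34F replicates, against 57.7%, 35.0% and 37.9% in wild-type replicates (difference -27.4 points, edgeR adjusted p = 0.178). Their libraries held as few as 12 and 11 informative reads. At the other end of depth, the 6 most deeply read exons lie in RPS14, ACTB and ANXA2 (30350 to 56718 informative reads). They include an 81-base UTR exon of the annexin gene ANXA2, at 24.8%, 22.4% and 18.6% in S34F replicates, against 26.6%, 25.7% and 19.4% in wild-type replicates. Its ranges overlapped, replicate 3 was lowest in both genotypes, and it was not called (edgeR adjusted p = 0.91). None of these 6 was called.

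Among 29 genes listed for splicing changes reported with this mutation, 8 held 18 of the exons, of which 1 was called lower, in SAT1, and none higher, beside 0.609% of all 2627 called. The list was drawn up with earlier results of these data known, so the SAT1 call is no independent support. The list names genes, and every frame-keeping exon of a listed gene was counted. These exons need not be those reported to change, so the counts do not test the reported changes. Mean inclusion was lower in S34F cells for 8 and higher for 10, with a median difference of 0.211 points, beside 1277 lower, 1350 higher and 0.0405 points for all 2627. The 66-base exon of STRAP, a scaffold protein gene of the TGF-beta pathway, was included in 100%, 98.5% and 97.4% in S34F replicates, against 95%, 92.1% and 96.0% in wild-type replicates, a separation that was not called (edgeR adjusted p = 0.649). A 159-base exon of UPP1, which encodes uridine phosphorylase, was included in 0%, 2.56% and 2.08% of 46, 39 and 48 reads in S34F replicates, against 9.17%, 9.64% and 11.1% of 436, 394 and 271 in wild-type replicates. The 0 of 46 reads allows an inclusion of up to 6.52%, and the exon was not called (log2 odds ratio -2.71, SE 0.79, edgeR adjusted p = 0.0663). Counted over any flanking sites, the UPP1 exon was called (log2 odds ratio -1.12, edgeR adjusted p = 0.00957). The level of the UPP1 gene fell to 141 ± 46.5 CPM in S34F cells, against 1166 ± 417 CPM in wild-type cells (SD, n = 3 each, log2 fold change -3.03, edgeR adjusted p = 3.49e-05). In bulk RNA, fewer cells with a transcript and less of it per cell cannot be told apart. In H2AFY, the gene of the histone variant macroH2A1, a 108-base exon stood at 97.3%, 94.7% and 96.1% in S34F replicates, against 99.4%, 95.5% and 97.9% in wild-type replicates (edgeR adjusted p = 0.736).

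Among 36 genes with exons known to be regulated in epithelial or other cells, 14 held 43 of the exons, with 1 called lower (HNRNPDL) and none higher, beside 0.609% of all 2627. Here too every frame-keeping exon of a listed gene was counted, whether or not it is the regulated one. Mean inclusion was lower for 18 and higher for 25, with a median difference of 0.346 points beside 0.0405. In CD44, the hyaluronan receptor gene, a 126-base coding exon was included in 97.4%, 94.9% and 92.9% in S34F replicates, against 87.7%, 89.1% and 89.6% in wild-type replicates (edgeR adjusted p = 0.559). In the kinase gene MAP4K4 a 192-base exon was at 50%, 44.4% and 40.7% in S34F replicates, against 24.6%, 28.3% and 39.5% in wild-type replicates (edgeR adjusted p = 0.771). The values of both exons did not overlap between the genotypes, with a gap of little more than a point in MAP4K4. A 129-base exon of the pyruvate kinase gene PKM differed the other way without overlap, at 40%, 18.2% and 31.2% in S34F replicates, against 53.1%, 50% and 43.2% in wild-type replicates (edgeR adjusted p = 0.616). It had only 11 to 25 reads per S34F library and 26 to 49 per wild-type library. A 159-base PKM exon that overlaps it had 640 reads in all and overlapping values. These were 84%, 81.0% and 79.7% in S34F replicates, against 81.7%, 84.3% and 76.6% in wild-type replicates (edgeR adjusted p = 0.981). The 192-base exon of fibronectin (FN1) had overlapping values of 45.0%, 40.8% and 51.8% in S34F replicates, against 49.0%, 46.7% and 47.6% in wild-type replicates (edgeR adjusted p = 0.981). Of 25 genes of SR proteins and hnRNPs, which bind exons and introns and set how often exons are used, 14 held 29 of the exons, with 1 called lower, again HNRNPDL, and none higher, beside 0.609% of all 2627. Mean inclusion in this list was lower for 8 and higher for 21, with a median difference of 0.623 points, beside 1277 lower, 1350 higher and 0.0405 points for all 2627. In all 3 lists many exons were highly included and several share a gene. At 95% or more inclusion, 796 of all 1294 exons had a higher mean in S34F cells. A 135-base exon of SRSF3 stood at 95.9%, 94.9% and 92.2% in S34F replicates, against 95%, 90.3% and 86.3% in wild-type replicates (edgeR adjusted p = 0.519).

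The base before the AG differed between exons, and inclusion was set beside it for the 822 exons where it could be read. It was C in 564, T in 215, A in 40 and G in 3. After T, the median difference was -0.0192 points and the mean -0.889 points, with 51.6% of exons lower in S34F cells, 27 below without overlap and 12 above. After C, the median was 0.104 and the mean -0.0901 points, with 46.3% lower, 36 below without overlap and 39 above. After A, the median was 0.135 and the mean 0.613 points, with 32.5% lower, 1 below without overlap and 6 above. Inclusion was more than 10 points lower in S34F cells for 8 exons after T, 9 after C and 0 after A, and more than 10 points higher for 2, 5 and 1. Over all cassette exons these counts were 37, 44 and 2 lower and 6, 18 and 7 higher. The called exons with a base read were 3 after T (MRPS18C, PABPC4 and DCTN3), 1 after C (HNRNPDL) and 1 after G (RNF181). Over all cassette exons the medians were -0.187 points after T (615 exons), 0.0993 after C (1644) and 0.280 after A (125). The shares below and above without overlap were 12.6% and 5.58% after T (13.8% and 5.69% over all cassette exons) and 6.38% and 6.91% after C (6.995% and 7.85%). After A they were 2.5% and 15% (4.8% and 12% over all cassette exons). Over all cassette exons 13 were called lower and 0 higher after T, 9 lower and 6 higher after C, and 0 lower and 2 higher after A. These values are a description, since the base was read only where an annotated transcript runs through the intron end.

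A T before the AG was present at exons of either direction among those not called. TM2D3, above, is shown with RPS18, whose 99-base exon was included in 99.4%, 98.5% and 99.2% in S34F replicates, against 98.1%, 98.1% and 98.8% in wild-type replicates (log2 odds ratio 1.02, SE 0.33, edgeR adjusted p = 0.131). Without S34F replicate 1 the log2 odds ratio of RPS18 was 0.48 (edgeR adjusted p = 0.806), and without S34F replicate 2 it was 1.26 (0.0276). The TM2D3 exon lies at chr15:102191899-102191976 (minus strand) and that of RPS18 at chr6:33240405-33240503 (plus strand), and capitals mark the AG with the base before it.
TM2D3: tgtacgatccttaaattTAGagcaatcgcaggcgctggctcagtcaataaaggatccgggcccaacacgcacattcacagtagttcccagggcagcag
RPS18: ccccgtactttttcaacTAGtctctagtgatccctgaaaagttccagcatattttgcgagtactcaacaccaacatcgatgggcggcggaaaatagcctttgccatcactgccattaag
Both introns end in TAG. The difference in mean inclusion was -27.4 points in TM2D3, without overlap between the genotypes. In RPS18 it was only 0.687 points, and the values overlapped. Neither exon was called, and the counts for all exons after T are those given above.

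The level of the host genes was tested apart from exon use. Of the 1534 host genes 41 were called (2.67%), 23 lower and 18 higher in S34F cells, beside 3.38% of all 8454 genes tested (2.21% lower and 1.17% higher). Their median log2 fold change was 0.07, beside -0.01 over all genes. Of the 16 host genes of called exons 1 was called, SNHG17, at 43.4 ± 19.9 CPM in S34F cells, against 117 ± 34.9 CPM in wild-type cells (SD, n = 3 each, log2 fold change -1.51, edgeR adjusted p = 0.00655). The other 15 were not called. Their log2 fold changes ran from -0.72 in EXOSC1 (edgeR adjusted p = 0.262) to 0.82 in S100A2 (edgeR adjusted p = 0.279). Without the term for B1/B2 no host gene was called, and leaving out 1 library gave 10 (without wild-type replicate 2) to 116 (without S34F replicate 2) called host genes.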

How the data were processed

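Poly(A) RNA of 6 HBEC3kt libraries was reverse transcribed by a Smart-Seq2 approach and read on a MinION, per the labels' protocols. In the deposited table each value is a raw read count, not normalized, for 1 of 63224 isoforms in 1 library, made by the authors over a shared isoform set whose deposited models give the exons. Positions are in hg19, the build named by the submitters' processing notes. No source used here states the aligner, the filters, how reads were assigned or whether strand was used, so overlapping and antisense genes may share reads.

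Isoform counts were summed per library into reads with and reads skipping each cassette exon. The test on both counts was the quasi-likelihood one of edgeR 4.0.16 under R 4.3.3 (Benjamini-Hochberg over 7541 exons), with library terms and with the exon form, form by B1/B2 and form by genotype. This leaves 3 residual degrees of freedom. The estimated prior degrees of freedom were infinite, so exons share 1 trended spread, whereas limma 3.58.1 (offset 0.5 reads) estimated 5.1. Gene counts were tested with TMM scaling, filterByExpr (10 reads, 15 in total) and B1/B2. DESeq2 1.42.0, limma and the settings in the closing section were alternatives. Exons were counted in Python 3.11.15 (numpy 2.4.6, pandas 2.3.3), with figures drawn by matplotlib 3.10.9. Limits for a value of 0 use 3 reads. Reads may include PCR copies, so such limits cover counting error only.

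Symbols, coding state and sequences came from GENCODE 29, an annotation of another build, matched by gene ID, exon length and both intron lengths. Of the exons 2601 had a symbol. The exons named are the called ones, the 6 higher and 6 lower with the smallest p, the 6 largest differences without overlap, the 6 with most reads and examples from 3 gene lists, all of whose exons are counted. CD44, MAP4K4, PKM, FN1, SRSF3, STRAP, UPP1 and H2AFY were picked as examples after their values were seen. Exons and lists were chosen with earlier results of these data known.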

Additional observations from a re-analysis of the deposited data

How the results depend on the processing

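The number of called frame-keeping exons, 16, depended on the tool and the settings, and so did the 67 calls among all cassette exons. For the frame-keeping exons and for all cassette exons, DESeq2 gave 0 and 2 calls, limma on the log odds 0 and 0, equal depth 1 and 7, the B1 libraries alone 5 and 14, and isolate 2 summed to 1 library 7 and 31. Leaving out the B1/B2 term gave 9 and 30, counting reads with any flanking sites 29 and 105, and leaving out 1 library 5 to 12 and 15 to 48. TMM scaling gave 6 (2 lower) and 46 (11 lower). It shifts reads with the exon against reads that skip it by a constant, which the library terms do not take up. Minimums of 1 and 20 reads gave 14 and 13. Of the 9 exons whose sequences are shown first, MRPS18C was called in 13 of 17 alternative settings. PDHA1 and EXOSC1 were called in 11 of 17, C1orf43 in 8, IDH3B in 5, GSTO1 in 4 and DCTN3 in 2. ST7 was called in 6 of 15 settings and PABPC4 in 0 of 15. SAT1, whose sequence was not matched, was called in 15 of 17. The 41 called host genes became 11 with B1 alone, 0 without the B1/B2 term, 62 without the filter on low counts and 10 to 116 with 1 library left out, and 43 with DESeq2. Log2 odds ratios of exons not called turned round to -0.39 in HARS with equal depth, 0.44 in H2AFY with any flanking sites and 0.29 in ANXA2 with TMM scaling. That of FN1, near 0, turned to 0.35 with TMM scaling, 0.0014 with equal depth, 0.0079 with isolate 2 summed and ran from -0.30 to 0.091 with 1 library left out. Over 34 named exons, 392 of the recomputed values kept direction and side of the threshold, 151 were no longer past it, 7 newly passed it and 9 turned round. Fewer reads or fewer libraries enter the fits at equal depth, with B1 alone and with a library left out; for the other settings the cause was not tested.

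Same-numbered replicates of the genotypes correlated at -0.0114, 0.00223 and 0.144 in their deviations, so the numbers were not taken as pairing the samples. With the replicate number as a block, 8 frame-keeping exons, 38 cassette exons and 40 host genes were called. Exons with 10 to 20 reads in a library cannot show small differences at this depth.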
